A study of Mus musculus with 2 samples.

Results

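Smooth muscle contracts when myosin filaments pull on actin filaments, and the 10 genes described here encode the main parts of that machinery in the mouse aorta: Acta2, Actg2, Myh11, Myl9, Mylk, Tagln, Cnn1, Tpm2, Lmod1 and Smtn. They were chosen by name as the contractile proteins of smooth muscle, and each name matched 1 of the 55450 gene rows of both count matrices. The names were taken with earlier results of these data known.

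The counts came from single-cell RNA-seq of aortic tissue from Apoe-/- mice, 12 weeks old, in which angiotensin II had induced an abdominal aortic aneurysm. One library stands for the inhibitor and the other for DMSO, the usual solvent of such compounds. Both groups therefore share the loss of apolipoprotein E, which raises plasma cholesterol, and the angiotensin II, a hormone that raises blood pressure. The sources used here do not name the inhibitor or its dose and timing, and do not say how many animals a library pools or which aortic segment a cell came from. With 1 library for each group there is no replicate and no test, and a difference between the inhibitor and DMSO cannot be told apart from a difference between the libraries. All intervals are exact 95% intervals that cover counting error only.

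The inhibitor library held 8149 barcodes with 79648307 UMIs, and the DMSO library 9125 barcodes with 101139161 UMIs. After filtering, 7417 inhibitor and 8411 DMSO cells were kept, with median depths of 8991 and 7935 UMIs. A UMI is a random tag put on each captured transcript, so that copies of 1 molecule count once. The libraries shared 16 barcodes, of which 5 were smooth muscle-like cells in the inhibitor library, against 0 in the DMSO library. Levels are given as CPM, the UMIs of a gene scaled to a total of 1000000 UMIs in the same cells. A 3′ UMI marks a transcript end whatever the transcript's length, and no length scaling was applied, so levels are compared between cells and libraries and not between genes.

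In a resting smooth muscle cell, actin filaments carry tropomyosin and calponin. A rise in calcium activates myosin light chain kinase, the kinase phosphorylates the regulatory light chain, and the myosin heavy chain then pulls on actin. Transcription of these genes depends on serum response factor and its partner myocardin, which act at DNA elements called CArG boxes. In diseased arteries smooth muscle cells can lose this programme and take on features of matrix-producing cells, a change known as phenotypic modulation.

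Acta2 encodes smooth muscle α-actin, the actin of the vascular thin filament, and lies at chr19:34241090-34255590 on the minus strand. Actg2 encodes smooth muscle γ-actin, best known from gut and bladder muscle, at chr6:83512905-83536265 on the minus strand. Myh11 encodes the smooth muscle myosin heavy chain at chr16:14194535-14291372 on the minus strand. Myl9 encodes the regulatory myosin light chain at chr2:156775420-156781658 on the plus strand, and Mylk the kinase that phosphorylates it at chr16:34745210-35002420 on the plus strand. Tagln encodes transgelin (SM22α), an actin-binding protein, at chr9:45929619-45936058 on the minus strand. Cnn1 encodes calponin 1, which binds actin and restrains myosin, at chr9:22099216-22109630 on the plus strand. Tpm2 encodes β-tropomyosin, which runs along the actin filament, at chr4:43514711-43523765 on the minus strand. Lmod1 encodes leiomodin 1, which starts new actin filaments, at chr1:135324807-135368065 on the plus strand, and Smtn encodes smoothelin, a cytoskeletal protein of contractile cells, at chr11:3517523-3540612 on the minus strand.

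These positions are those of GENCODE M21 on GRCm38. Of the last 400 bases of the longest coding transcript of each member, 0 of 351 stretches of 50 bases occurred in a transcript of another gene, so reads from the 3′ ends of Acta2 and Actg2, for example, could be told apart at that length. The genes that overlap a member are all on the opposite strand, among them Pcsk7 at the edge of Tagln and 3 antisense genes along Mylk.

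The promoter windows of 7 members were searched for CArG boxes, since Acta2, Myh11 and Tagln are textbook targets of serum response factor. The windows, from RefSeq on GRCm38.p6, hold 250 bases before the annotated start and 50 after it. Myh11, Tagln and Actg2 were not searched. A CArG box was taken as CC, 6 bases of A or T, then GG, a pattern that reads the same on both strands. The full box occurred in 1 of 7 windows, that of Myl9, against 1.63% of the 32851 windows of all genes. A box with 1 base off, a search added after the first result was seen, occurred in 3 of 7 windows, those of Acta2, Lmod1 and Myl9, against 19.9% of all windows. TATAAA, on either strand, occurred in 0 of 7 windows and in 13.6% of all. The sites are given as 30 bases each, 5′ to 3′ on the gene's strand, with the 10 bases of the site in capitals. They are matches of letters in a window and no evidence of binding. Both Acta2 sites lie within an exon of Acta2 that GENCODE annotates, and the Lmod1 and Myl9 sites lie in no annotated exon of their genes. The Myl9 sequences are at chr2:156775293-156775322 (the full box) and chr2:156775355-156775384 (1 base off), the Acta2 sequences at chr19:34255438-34255467 and chr19:34255388-34255417, and the Lmod1 sequences at chr1:135324614-135324643 and chr1:135324639-135324668.
Myl9 full box: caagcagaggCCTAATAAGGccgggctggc
Myl9 with 1 base off: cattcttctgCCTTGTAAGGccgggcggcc
Acta2 first site: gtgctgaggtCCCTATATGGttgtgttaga
Acta2 second site: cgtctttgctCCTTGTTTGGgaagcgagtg
Lmod1 first site: gcccccttgtCTTTAAAAGGctaaactgct
Lmod1 second site: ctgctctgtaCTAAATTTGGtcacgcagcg

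Cells were clustered without the 10 genes and classes were named from markers that hold none of them, so the levels in a class were not used to name it. The smooth muscle-like class rested on 3 of 33 clusters and held 2997 inhibitor cells (40.4% of those kept) and 528 DMSO cells (6.28%). Its median depth was 11199 UMIs in inhibitor cells and 13653.5 in DMSO cells. Of its 16 markers, which include Itga8, Synpo2 and Myocd, 13 reached 20 CPM in inhibitor cells and 14 in DMSO cells, and none was at 0; they summed to 6496 CPM in inhibitor cells and 6064 CPM in DMSO cells. The 12 fibroblast markers summed to 5652 CPM in inhibitor cells and 6158 CPM in DMSO cells, with 7 and 8 of them at 20 CPM or more, so that in DMSO cells they stood above the class's own list. The 11 pericyte markers summed to 4573 and 4792 CPM, with 6 at 20 CPM or more in each library. Modulated smooth muscle markers summed to 2618 CPM in inhibitor and 2934 CPM in DMSO cells, and adipocyte markers to 581 and 982 CPM. Endothelial markers summed to 94.2 and 157 CPM, and macrophage markers to 76.7 and 194 CPM. Erythroid markers summed to 104 CPM in inhibitor and 3.70 CPM in DMSO cells. The part of fibroblasts, pericytes or other cells in the values of the class was not tested. The median mitochondrial share was 4.86% in inhibitor cells and 5.94% in DMSO cells. The libraries filled the class differently. Cluster 0, led by the heat shock genes Hspa1b, Hspa1a and Hspb1, held 1846 inhibitor cells and 65 DMSO cells. Cluster 4, led by Sost, Npnt and Lgr6, held 661 and 373. Cluster 9, led by Pln, Sorbs2 and Des, held 490 and 90. The 29 heat shock genes listed summed to 40698 CPM in inhibitor smooth muscle-like cells and 11891 CPM in DMSO ones.

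The 10 genes took a similar share of the transcripts of smooth muscle-like cells in both libraries. They gave 5.68% of all UMIs of the class in the inhibitor library (interval 5.67 to 5.69), against 5.16% in the DMSO library (5.15 to 5.18), a log2 ratio of 0.14. Per cell the share had a median of 5.35% in inhibitor cells and 5.02% in DMSO cells. The middle 50% of inhibitor cells lay between 4.45% and 6.38%, and those of DMSO cells between 4.0% and 6.03%. The distributions overlapped, with 90% of cells between 3.27% and 8.58% in the inhibitor library, against 2.36% and 8.02% in the DMSO library. Over all kept cells the picture was different: the 10 genes gave 2.98% of UMIs in the inhibitor library, against 0.653% in the DMSO library, beside the larger number of smooth muscle-like cells in the inhibitor library. Over all kept cells all 10 were at least 1.5-fold higher in the inhibitor library with an interval leaving out 1, beside 9.54% of genes, and none was lower, beside 17.6%. Smooth muscle-like cells held 93.1% of all member UMIs in the inhibitor library, against 62.3% in the DMSO library.

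**Figure D1:**
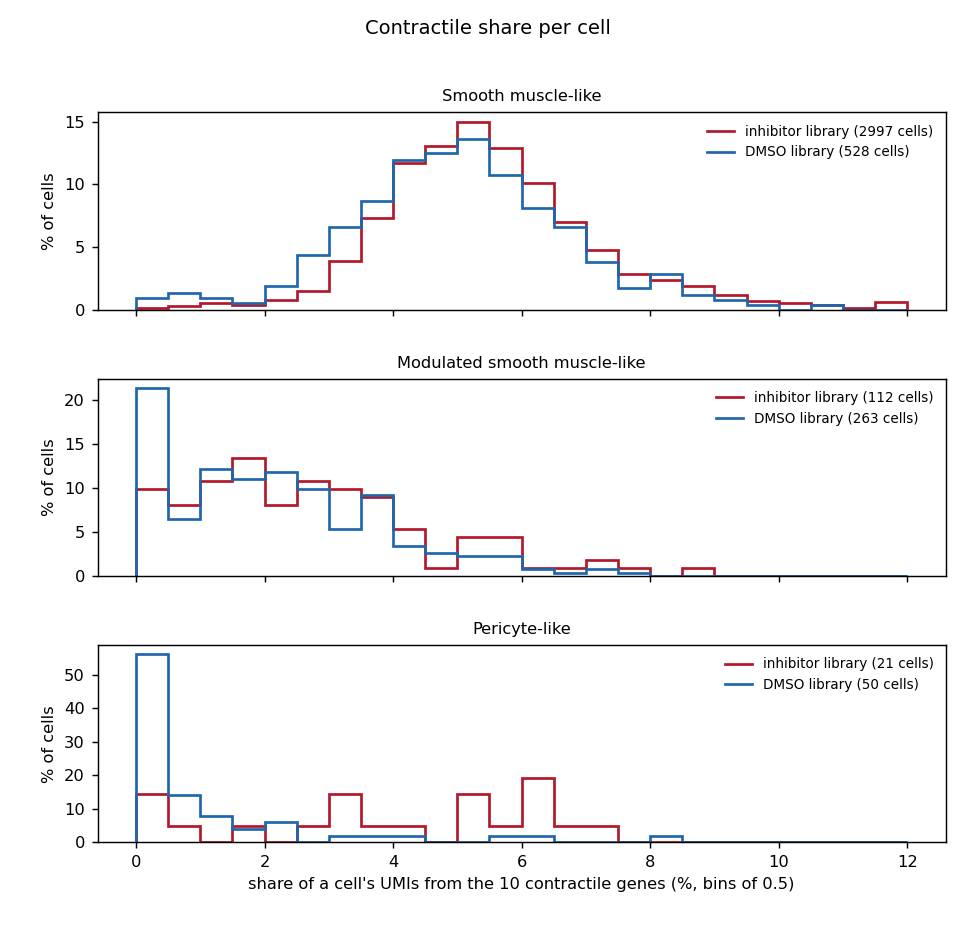
Share of each cell's UMIs that came from the 10 contractile genes (x axis, percent, in bins of 0.5; the last bin also holds higher values), as a percent of the cells of a class (y axis), for the inhibitor library (red) and the DMSO library (blue). Smooth muscle-like cells peak near 5% in both libraries, modulated cells spread from near 0 upward, and the pericyte-like cells, 21 inhibitor and 50 DMSO, differ most between libraries.

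Gene by gene, no member differed between the libraries by 1.5-fold in smooth muscle-like cells. A gene was called where the ratio of inhibitor to DMSO CPM was at least 1.5-fold and its interval left out 1. None of the 10 was called higher, beside 2.84% of the 6128 genes measured in the class, and none was called lower, beside 4.67%. The median log2 ratio of the 10 genes was 0.13, against -0.06 over all measured genes. Of the 10, 6 lay above 0.

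The actins and the myosin heavy chain stood slightly higher in the inhibitor library. Acta2 had 20290 CPM in inhibitor cells and 17933 CPM in DMSO cells, a ratio of 1.13 (interval 1.12 to 1.14). Actg2 had 386 CPM in inhibitor cells and 299 CPM in DMSO cells, a ratio of 1.29 (1.23 to 1.35). Myh11 had 4804 CPM in inhibitor cells and 4206 CPM in DMSO cells, a ratio of 1.14 (1.13 to 1.16). Each interval leaves out 1 and each ratio falls short of the 1.5-fold limit. These intervals hold no spread between animals or libraries, which 1 library per group cannot give.

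The light chain and its kinase did not go together. Myl9 had 4829 CPM in inhibitor cells and 4511 CPM in DMSO cells, a ratio of 1.07 (1.06 to 1.08). Mylk had 957 CPM in inhibitor cells and 1291 CPM in DMSO cells, a ratio of 0.741 (0.725 to 0.758). Mylk was the member with the lowest ratio, and 7.07% of all measured genes had a lower one.

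Among the actin-binding proteins, Cnn1 had the largest ratio. It had 2318 CPM in inhibitor cells and 1724 CPM in DMSO cells, a ratio of 1.34 (1.32 to 1.37), above 95.7% of measured genes. Tagln had 15594 CPM in inhibitor cells and 13866 CPM in DMSO cells, a ratio of 1.12 (1.12 to 1.13). Tpm2 had 6095 CPM in inhibitor cells and 6174 CPM in DMSO cells, a ratio of 0.987 (0.977 to 0.997). Lmod1 had 1042 CPM in inhibitor cells and 1043 CPM in DMSO cells, a ratio of 0.998 (0.975 to 1.02). Smtn, with 481 CPM in inhibitor cells and 583 CPM in DMSO cells, had a ratio of 0.825 (0.798 to 0.853). At a limit lowered to 0.32 on the log2 scale, Cnn1 and Actg2 passed as higher (background 7.93%) and Mylk as lower (background 16.9%).

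Because the libraries filled the 3 clusters unequally, the ratios were also taken within each. No member was called in cluster 0, beside 4.18% of genes higher and 5.93% lower, nor in cluster 4, beside 1.5% higher and 3.31% lower. In cluster 9 the only call was Cnn1, with 2821 CPM in inhibitor cells and 1879 CPM in DMSO cells, a ratio of 1.5 (1.44 to 1.57), beside 4.12% of genes higher and 11.3% lower. The Cnn1 ratio was 1.14 in cluster 0 and 1.19 in cluster 4. Mylk was below 1 in all 3, with ratios of 0.803 in cluster 0, 0.816 in cluster 4 and 0.667 in cluster 9. In cluster 9 Mylk fell just short of the lower 1.5-fold limit, and Cnn1 just passed the upper one. Acta2 was above 1 in all 3, with ratios of 1.15, 1.13 and 1.09 in clusters 0, 4 and 9. With mitochondrial and heat shock genes left out of the totals, the log2 ratio of the member share in smooth muscle-like cells was 0.17. With heat shock genes left out of the clustering, a choice made after seeing the data, it was 0.16. That clustering gave 2585 inhibitor and 432 DMSO smooth muscle-like cells. It had no cluster named modulated and none with Pln among its leading genes.

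**Figure D2:**
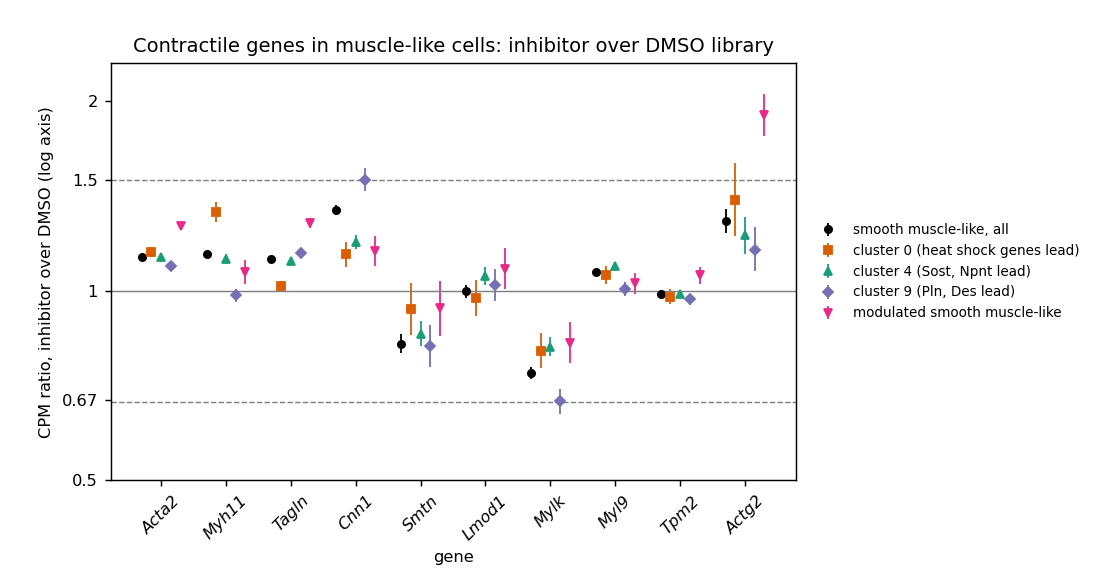
Ratio of CPM in the inhibitor library to CPM in the DMSO library (y axis, log scale) for each contractile gene (x axis), in all smooth muscle-like cells, in each of their 3 clusters and in modulated smooth muscle-like cells. Bars are 95% counting intervals and dashed lines mark 1.5-fold in either direction. Only Cnn1 in cluster 9 (1.5) and Actg2 in modulated cells (1.90) reach the upper line with an interval that leaves out 1, and Mylk lies below 1 in every group of cells. In cluster 9 Mylk lies just short of the lower line.

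Nearly every smooth muscle-like cell carried nearly the whole set. To make cells of different depth comparable, each was thinned to 2000 UMIs, which kept 2951 inhibitor and 518 DMSO cells. A thinned cell held a UMI of 8.55 of the 10 genes on average in the inhibitor library, against 8.60 in the DMSO library. At least 8 members were seen in 87.1% of inhibitor cells and 87.3% of DMSO cells. Acta2 was seen in 99.97% of inhibitor cells (2950 of 2951) and 99.8% of DMSO cells, with a median of 38 UMIs per inhibitor cell and 34 per DMSO cell. Smtn was seen in 60.1% of inhibitor cells and 68.7% of DMSO cells, and Mylk in 80.6% of inhibitor cells and 87.1% of DMSO cells, the same direction as their CPM. In T cell-like and neutrophil-like cells, which should lack these genes, Acta2 was seen in 58.9% of 73 inhibitor cells and 37.6% of 322 DMSO cells after the same thinning, with median depths of 2972 and 2783 UMIs before it. Smtn was seen there in 0 of 73 inhibitor cells, which allows a share of up to 4.11%, and in 0.932% of DMSO cells.

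Actg2, the actin of visceral muscle, was the member seen in fewest smooth muscle-like cells, 36.3% of inhibitor and 32.6% of DMSO cells, with a median of 0 UMIs per thinned cell in both libraries. Cells with an Actg2 UMI also held somewhat more of the other members. In the inhibitor library the 9 others were 1.02 to 1.18 times as high in the 1070 cells with Actg2 as in the 1881 without it. In the DMSO library the same ratios ran from 0.97 for Smtn to 1.22 for Tpm2, over 169 and 349 cells.

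Over single cells Acta2, Tagln, Tpm2 and Myl9 varied together most. Among smooth muscle-like cells, the strongest of the 45 pairs was Acta2 with Tagln, with a Pearson r of 0.56 in 2951 inhibitor cells and 0.70 in 518 DMSO cells. Pairs of these 4 genes made up the 5 strongest in both libraries, with r from 0.43 to 0.56 in inhibitor cells and from 0.55 to 0.70 in DMSO cells. The pairs that involve Smtn or Lmod1 lay at 0.14 or below in inhibitor cells and at 0.16 or below in DMSO cells. The median over all pairs was 0.14 in inhibitor cells and 0.15 in DMSO cells. The cells of a library share its depth and its free RNA, and all were thinned to 1 depth. In sparse counts such low values of r are no finding.

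**Figure D3:**
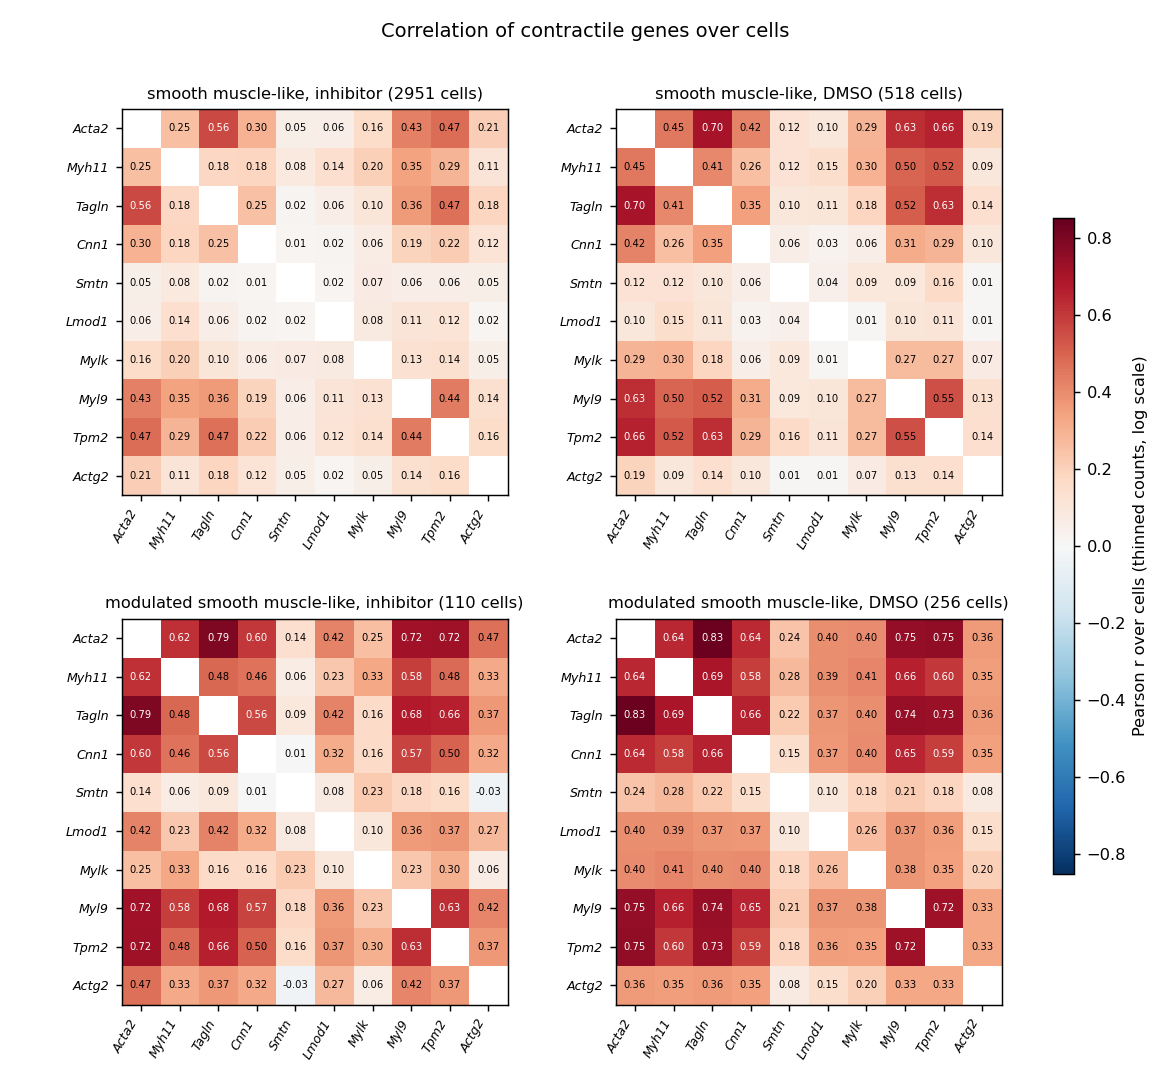
Pearson correlation over cells between each pair of contractile genes (log scale of thinned counts), for smooth muscle-like cells (top) and modulated smooth muscle-like cells (bottom), inhibitor library left and DMSO library right. Acta2, Tagln, Myl9 and Tpm2 form the darkest block in all 4 panels, up to 0.79 in inhibitor and 0.83 in DMSO modulated cells.

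Within the smooth muscle-like class, the cluster led by Pln, Sorbs2 and Des carried more of the set in both libraries. Cluster 9 devoted 7.12% of its UMIs to the 10 genes in the inhibitor library, against 6.64% in the DMSO library. Clusters 0 and 4 gave 5.41% and 5.28% in the inhibitor library, against 4.98% and 4.82% in the DMSO library. Actg2 had 614 CPM in cluster 9 and 337 CPM in clusters 0 and 4 together in the inhibitor library, a ratio of 1.82 (1.75 to 1.89). In the DMSO library Actg2 had 528 CPM in cluster 9 and 249 CPM in clusters 0 and 4, a ratio of 2.12 (1.94 to 2.32). Tpm2 had 8815 CPM in cluster 9 and 5514 CPM in clusters 0 and 4 of the inhibitor library, and 9088 and 5538 CPM in the DMSO library. Mylk passed 1.5-fold in the DMSO library at 1.67, and had a ratio of 1.44 in the inhibitor library. Smtn and Lmod1 stayed within 1.02 to 1.06 in both libraries. In all, 2 members were called higher in the inhibitor library, beside 3.28% of genes, and 3 in the DMSO library, beside 5.47%. None was called lower, beside 6.14% of genes in the inhibitor library, against 6.31% in the DMSO library. Since the cells were grouped by their other genes, this is a description of the clusters and no test. Cluster 4 over cluster 0 gave no call in the inhibitor library (2.77% of genes higher, 2.22% lower) or the DMSO library (4.95% higher, 3.35% lower).

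Among the muscle-like clusters, the modulated smooth muscle-like cluster gave the smallest share of its UMIs to the set in both libraries. It held 112 inhibitor cells and 263 DMSO cells. Its median depth was 20392 UMIs in inhibitor and 19195 UMIs in DMSO cells, beside 11199 and 13653.5 in smooth muscle-like cells. CPM is a share of UMIs, so a lower CPM in these deeper cells need not mean fewer UMIs of a gene per cell. Its leading genes were Hs6st2, Igfbp2, Clca3a2, Acan, Tnfrsf11b, Frzb, Thbs1, Eln, Vcam1 and Rarres1. Acan, Tnfrsf11b, Eln and Vcam1 are also among the markers that named it. The 10 contractile genes gave 2.53% of the cluster's UMIs in the inhibitor library, against 2.1% in the DMSO library. Relative to smooth muscle-like cells of the same library, 9 of 10 members were lower in the inhibitor library, beside 14% of 6497 genes, and 9 of 10 in the DMSO library, beside 13.6% of 6658 genes. None was called higher, beside 20.7% of genes in the inhibitor library, against 15.1% in the DMSO library. The median ratio of the members was 0.395 in the inhibitor library, against 0.375 in the DMSO library.

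The lowest ratio was that of Myh11. It had 1165 CPM in modulated cells and 4804 CPM in smooth muscle-like cells of the inhibitor library, a ratio of 0.243 (0.234 to 0.251). In the DMSO library it had 1089 CPM in modulated cells and 4206 CPM in smooth muscle-like cells, a ratio of 0.259. Of the 9, Acta2 had the highest ratio, with 10796 CPM in modulated cells and 20290 CPM in smooth muscle-like cells of the inhibitor library, a ratio of 0.532 (0.526 to 0.538), and a ratio of 0.476 in the DMSO library. Acta2 therefore made up 42.6% of member UMIs in modulated cells and 35.7% in smooth muscle-like cells of the inhibitor library, and 40.7% and 34.7% in the DMSO library. Actg2 alone was not called lower: 469 CPM in modulated cells against 386 CPM in smooth muscle-like cells of the inhibitor library, and 247 against 299 CPM in the DMSO library.

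Modulated cells spread widely in their share of the set. The middle 50% of cells had between 1.34% and 3.68% of their UMIs from the set in the inhibitor library, against between 0.745% and 3.32% in the DMSO library. A thinned modulated cell held 6.96 members on average in the inhibitor library, against 6.36 in the DMSO library. Cnn1 was seen in 63.6% of modulated inhibitor cells, beside 96.1% of smooth muscle-like ones, while Acta2 was seen in all 110 modulated inhibitor cells. The median r over the 45 pairs was 0.36 in 110 inhibitor cells and 0.37 in 256 DMSO cells, with 0.79 and 0.83 for Acta2 and Tagln, all above the values in smooth muscle-like cells. Cells with an Actg2 UMI held 1.83 times as much Acta2 as cells without one in both libraries. The 12 fibroblast markers, collagens among them, summed to 18052 CPM in inhibitor modulated cells and 28214 CPM in DMSO ones, with all 12 at 20 CPM or more in both. The modulated markers, the list that named these cells, summed to 10884 CPM in inhibitor and 16108 CPM in DMSO modulated cells. That was below the fibroblast list in both libraries. The smooth muscle markers summed to 2378 CPM in inhibitor and 2169 CPM in DMSO modulated cells. The part of a mixture of cell types in the lower members was not tested.

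**Figure D4:**
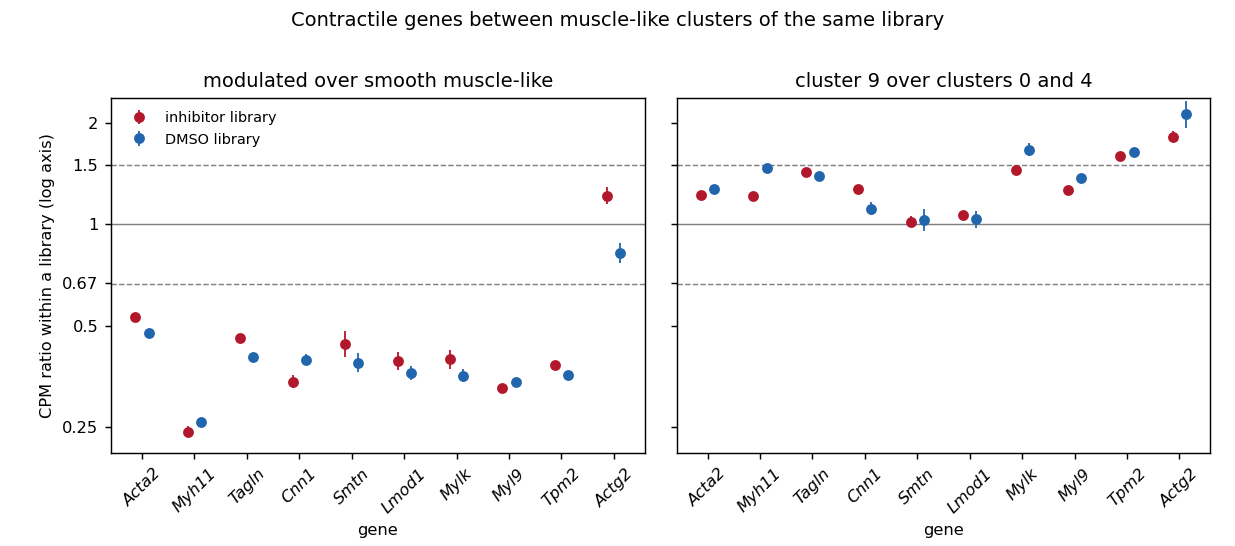
Ratio of CPM between clusters of the same library (y axis, log scale) for each contractile gene, in the inhibitor library (red) and the DMSO library (blue). Left, modulated over smooth muscle-like cells, and right, cluster 9 over clusters 0 and 4; bars are 95% counting intervals and dashed lines mark 1.5-fold. On the left 9 genes lie below the lower line in both libraries and Actg2 does not; on the right Tpm2 and Actg2 lie above the upper line in both libraries and Mylk in the DMSO library.

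Between the libraries, Actg2 was the only member called in modulated cells. It had 469 CPM in inhibitor cells and 247 CPM in DMSO cells, a ratio of 1.90 (1.76 to 2.06), beside 2.94% of 6453 genes higher and 6% lower. Acta2 had 10796 CPM in inhibitor cells and 8528 CPM in DMSO cells, a ratio of 1.27 (1.247 to 1.285), and Tagln 7198 and 5612 CPM, a ratio of 1.28 (1.26 to 1.31). Mylk again lay below 1, with 380 CPM in inhibitor cells and 460 CPM in DMSO cells, a ratio of 0.828 (0.768 to 0.891). The median log2 ratio of the members was 0.11 in this cluster, against 0.01 over all measured genes.

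The calls moved with how the class was drawn. If modulated cells were counted with the smooth muscle-like cells, which is a choice made after seeing the data, Cnn1 and Myh11 were called higher in the inhibitor library (log2 ratios of 0.78 and 0.65), beside 3.64% of genes, and no member lower, beside 8.8%. The median log2 ratio of the 10 genes was then 0.49. Modulated cells made up 112 of 3109 such cells in the inhibitor library, against 263 of 791 in the DMSO library. The member share of UMIs over these cells was 5.47% in the inhibitor library, against 3.88% in the DMSO library.

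Pericytes, the contractile cells that wrap small vessels, were resolved only by finer clustering, as 21 inhibitor cells and 50 DMSO cells that formed no named cluster at the main setting. There they lay in cluster 6, left unnamed for its median of 774.5 UMIs, with the fibroblast list scoring best. The pericyte-like cells themselves had medians of 7594 UMIs in the inhibitor and 7905.5 UMIs in the DMSO library. All 11 pericyte markers reached 20 CPM in both libraries. In the 21 inhibitor cells that limit took only a few UMIs: Rgs4 had 4 UMIs in 1 cell and Cspg4 4 UMIs in 3 cells. The 11 markers summed to 3117 CPM in inhibitor cells and 6445 CPM in DMSO cells. Rgs5 alone had 844 CPM in inhibitor cells and 3979 CPM in DMSO cells. The smooth muscle markers summed to 2355 CPM in inhibitor and 1197 CPM in DMSO pericyte-like cells, and of the 16, Pln and Sost had 0 UMIs in inhibitor cells. Fibroblast markers summed to 11228 CPM in inhibitor cells and 16428 CPM in DMSO cells, and adipocyte markers to 956 and 4899 CPM. Mesothelial markers summed to 0 CPM in inhibitor cells and 1219 CPM in DMSO cells, where all 6 reached 20 CPM, and erythroid markers to 0 and 891 CPM.

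All 10 members were called higher in inhibitor than in DMSO pericyte-like cells, beside 7.35% of 5714 genes higher and 10.3% lower. Acta2 had 11747 CPM in inhibitor cells and 4121 CPM in DMSO cells, a ratio of 2.85 (2.68 to 3.03). Myh11 had 4168 CPM in inhibitor cells and 870 CPM in DMSO cells, a ratio of 4.79 (4.25 to 5.4). Cnn1 had 1293 CPM in inhibitor cells and 183 CPM in DMSO cells, a ratio of 7.07 (5.53 to 9.09). The median cell gave 4.43% of its UMIs to the set in the inhibitor library, against 0.385% in the DMSO library. Thinned cells held 7.81 members on average among 21 inhibitor cells and 4.65 among 40 DMSO cells. Of these, 15 inhibitor cells with 8 or more members held 93.5% of the member UMIs, and 7 such DMSO cells held 64.9%. The intervals of the ratios count UMIs and hold no spread between cells. The lower Rgs5 and higher smooth muscle marker sum of the inhibitor cells went with these ratios, as did the other lists above, and the part of other cells in them was not tested. Mylk at 1883 CPM and Actg2 at 1051 CPM in inhibitor pericyte-like cells were above their levels in any other class of that library.

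**Figure D5:**
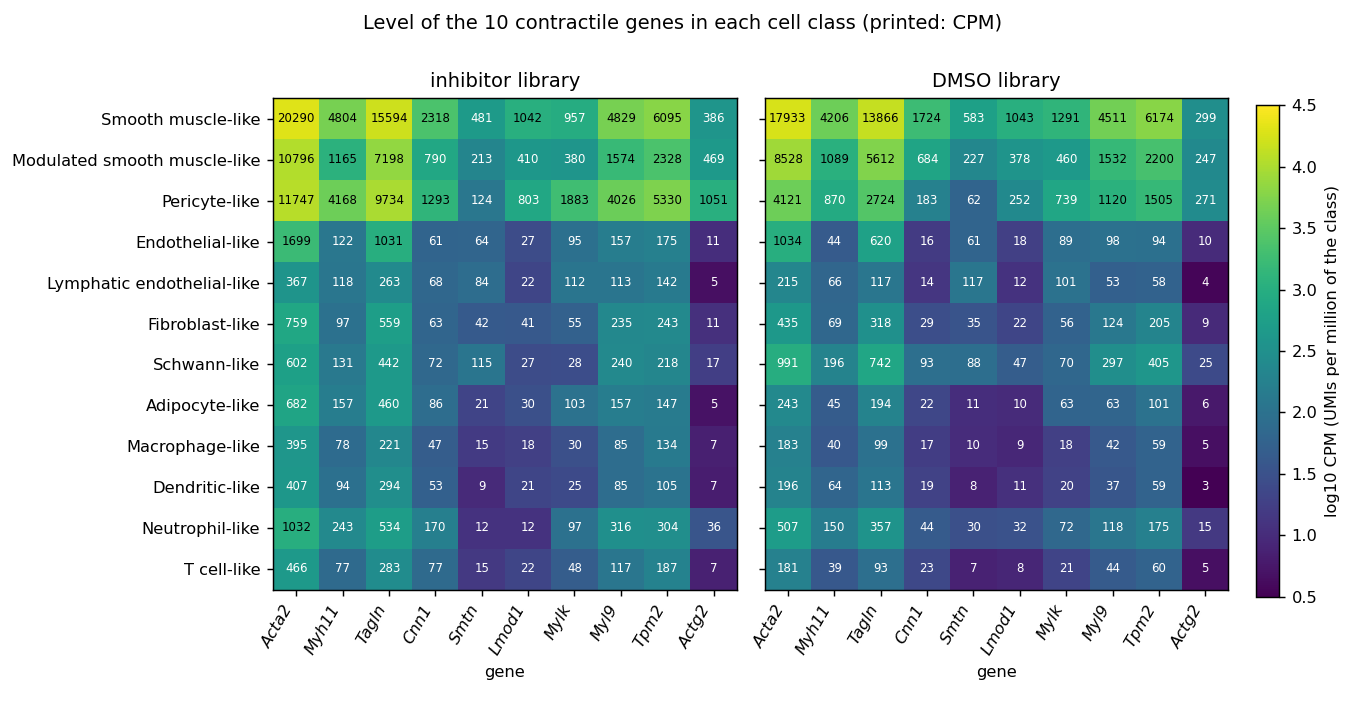
Level of each contractile gene (columns) in each of 12 cell classes (rows), inhibitor library left and DMSO library right; colour is log10 CPM and the printed value is CPM. Smooth muscle-like, modulated smooth muscle-like and pericyte-like cells hold the 3 highest levels of every gene but Smtn in the DMSO library, with endothelial-like Acta2 (1699 CPM in the inhibitor library, against 1034 CPM in the DMSO library) the highest Acta2 value elsewhere.

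Across the 12 classes named in both libraries, smooth muscle-like cells had the highest level of 8 members in the inhibitor library, with Mylk and Actg2 the exceptions, and of all 10 in the DMSO library. Smooth muscle-like, modulated and pericyte-like cells were the top 3 classes for all 10 members in the inhibitor library. They were so for 9 in the DMSO library, where Smtn was higher in lymphatic endothelial-like cells (117 CPM) than in pericyte-like cells (61.6 CPM).

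Free RNA, released by broken cells into all droplets, gives UMIs in cells that do not express a gene, and T cell-like and neutrophil-like cells were taken as the background for it. The part of free RNA in the levels of the other classes was not tested. T cell-like and neutrophil-like cells together, 117 in the inhibitor library, against 479 in the DMSO library, had 598 CPM of Acta2 in the inhibitor library, against 281 CPM in the DMSO library. For Tagln these levels were 341 and 174 CPM. For Cnn1 they were 98.6 and 29.9 CPM, and for Smtn 14.1 and 14.3 CPM. The level in these cells was 0.987 to 3.30 times as high in the inhibitor as in the DMSO library, above 1 for 9 of 10 members. The 2 classes behind this background differed: Acta2 had 466 CPM in T cell-like and 1032 CPM in neutrophil-like cells of the inhibitor library, and 181 and 507 CPM in those of the DMSO library. Neutrophil-like cells stood at 2.1 times the joint background for Myh11 in the inhibitor library, and at 2.04 times for Myh11 and 2.05 times for Tagln in the DMSO library, so they passed the 2-fold limit used next. In the DMSO library 1 of 322 thinned cells held 26.3% of the member UMIs of this background.

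Against that level, macrophage-like, dendritic-like and adipocyte-like cells had 0 of 10 members at 2-fold or more with an interval leaving out 1, in either library. The background cells were shallower, with medians of 2972 inhibitor and 2783 DMSO UMIs. Medians were 5368.5 and 6477 in macrophage-like, 8878.5 and 9054.5 in dendritic-like and 26147 and 27394.5 in adipocyte-like cells. A CPM limit from shallow cells is hard to pass in deep ones, so the 0 does not show that these classes lack the members. The mix of members in these cells differed from that in smooth muscle-like cells by gene. In dendritic-like cells Acta2 made up 37.0% of member UMIs in the inhibitor library, beside 35.7% in smooth muscle-like cells. In macrophage-like cells it made up 38.3% of member UMIs of the inhibitor library. In the DMSO library it made up 38.0% of them in macrophage-like cells, beside 34.7% in smooth muscle-like cells. Tagln made up 21.5% of member UMIs in inhibitor macrophage-like cells, beside 27.5% in smooth muscle-like cells. Mylk made up 5.60% in inhibitor adipocyte-like cells, beside 1.68% in smooth muscle-like cells, and 8.26% in DMSO ones, beside 2.50%. Mylk in adipocyte-like cells stood at 1.75 times the background in the inhibitor library (1.1 to 2.91), against 1.72 times in the DMSO library (1.31 to 2.3).

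Members were also called higher in the inhibitor library in 8 of the 9 other classes, all but Schwann-like cells. All 7 measured members were called higher in inhibitor T cell-like cells, beside 3.77% of genes, and all 7 in macrophage-like cells, beside 3.42%. Dendritic-like cells had 6 of 8 called higher, beside 3.36%, and neutrophil-like cells 4 of 7, beside 4.7%. In adipocyte-like cells 8 of 9 were called higher, beside 5.52% of genes, and in fibroblast-like cells 5 of 9, beside 5.17%. Few adipocyte-like cells held most of these UMIs: of 51 thinned inhibitor cells, 2 held 57.3% of the member UMIs and 4 held 78.5%. In adipocyte-like cells with fewer than 5 members, Acta2 had 149 CPM in the inhibitor library, against 70.1 CPM in the DMSO library, and Mylk 74.4 and 52.5 CPM. Endothelial-like cells had 6 of 9 called higher, beside 4.89%, and lymphatic endothelial-like cells 6 of 9, beside 5.75%. No member was called lower in these 8 classes, where the share of all genes called lower was 5.4% in T cell-like, 4.16% in macrophage-like, 8.92% in dendritic-like, 4.25% in neutrophil-like, 8.18% in adipocyte-like, 7.77% in fibroblast-like, 8.91% in endothelial-like and 9.51% in lymphatic endothelial-like cells. The median log2 ratio was 1.34 in T cell-like cells, 1.09 in macrophage-like cells and 0.79 in fibroblast-like cells. Depth also differed in some of these classes. Fibroblast-like cells had a median of 8818 UMIs in the inhibitor and 16061 UMIs in the DMSO library, and T cell-like cells 3992 and 4033. In fibroblast-like cells Acta2 had 16015 UMIs in 1986 inhibitor cells and 15557 UMIs in 1901 DMSO cells. Whether depth or the larger number of smooth muscle-like cells in the inhibitor library accounts for these calls was not tested. In smooth muscle-like cells Acta2 stood at 34.0 times the background in the inhibitor library, against 63.8 times in the DMSO library, and the member nearest to it, Mylk, at 16.2 and 35.5 times. With the background taken off, the median log2 ratio of the members in smooth muscle-like cells was 0.11.

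A few members stood clear of that background outside muscle. Acta2 in endothelial-like cells had 1699 CPM in the inhibitor library, 2.84 times the background (2.48 to 3.28), and 1034 CPM in the DMSO library, 3.68 times (3.34 to 4.06). Tagln did likewise, at 3.02 and 3.56 times. The signal came mostly from cluster 14, led by Cytl1, Gja5, Gkn3 and Edn1, of which Gja5 encodes a connexin of arterial endothelium. It had 2666 CPM of Acta2 in 196 inhibitor cells and 2475 CPM in 148 DMSO cells. Cluster 7, led by Gpihbp1, Btnl9 and Rbp7, had 519 and 241 CPM, and cluster 20, led by Vwf, Aplnr and Plvap, 328 and 315 CPM.

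Over the whole of cluster 14, Tagln had 1584 CPM in inhibitor cells and 1371 CPM in DMSO cells, and Myh11 140 and 49.0 CPM, beside a background of 116 and 73.4 CPM. Of its thinned cells, 11 inhibitor cells with 5 or more members held 35.6% of the member UMIs, and 8 DMSO cells held 20.5%. In the other cells Acta2 had 2019 CPM in the inhibitor library, against 2177 CPM in the DMSO library. Acta2 was seen in 62.0% of thinned inhibitor cells and 53.6% of DMSO cells of the cluster, beside 58.9% and 37.6% of T cell-like and neutrophil-like cells.

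Smtn, the gene of smoothelin, was the member that passed the 2-fold limit most widely outside muscle. It was above background in endothelial-like, lymphatic endothelial-like, fibroblast-like and Schwann-like cells of both libraries. Its background rested on 5 UMIs in the inhibitor and 22 UMIs in the DMSO library, beside 212 and 433 for Acta2. A smaller added level was therefore enough for Smtn to pass than for Acta2. Schwann-like cells had 115 CPM in the inhibitor library, 8.17 times the background (3.40 to 25.6), and 88.0 CPM in the DMSO library, 6.16 times (3.97 to 10.0). Within them Smtn was highest in cluster 23, whose leading genes include the myelin genes Mbp and Prx. There it had 358 CPM in 71 inhibitor cells (284 to 445) and 392 CPM in 67 DMSO cells (319 to 477), beside 481 and 583 CPM in smooth muscle-like cells. It was seen in 50.0% of 60 thinned inhibitor cells and 54.2% of 59 thinned DMSO cells. The other Schwann-like cluster, cluster 10, had 48.8 CPM in the inhibitor library, against 53.6 CPM in the DMSO library. Acta2 was not raised with Smtn there, with 465 CPM in inhibitor and 278 CPM in DMSO cells of cluster 23, near the background.

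Lymphatic endothelial-like cells, 82 inhibitor and 127 DMSO, had 84.3 CPM of Smtn in the inhibitor library, against 117 CPM in the DMSO library. Mylk had 112 CPM in the inhibitor library, against 101 CPM in the DMSO library, 1.89 and 2.78 times the background, so that only the DMSO library passed 2-fold. In fibroblast-like cells Smtn had 42.4 CPM in the inhibitor library, against 34.7 CPM in the DMSO library. Lmod1 passed only in the inhibitor library, at 41.5 CPM and 2.1 times, and Tpm2 only in the DMSO library, at 205 CPM and 2.15 times. In fibroblast-like cells with fewer than 5 members, Lmod1 had 25.6 CPM in the inhibitor library, beside a background of 19.7 CPM, and Tpm2 127 CPM in the DMSO library, beside 95.4 CPM.

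In DMSO Schwann-like cells 9 of 10 members were above background, and 5 were called lower in the inhibitor library than in the DMSO library, beside 5.54% of genes, while none of the 10 was called higher, beside 5.55%. That level rested on few cells. Of 392 thinned DMSO cells, 4 with 8 or more members held 52.8% of the class's member UMIs, and none of 199 inhibitor cells held as many. In cells with fewer than 5 members, Acta2 had 335 CPM in the inhibitor library, against 143 CPM in the DMSO library. In fibroblast-like cells likewise, 18 of 1824 inhibitor cells and 27 of 1850 DMSO cells with 8 or more members held 19.5% and 26.4% of the member UMIs.

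The genes whose level over clusters was most like the mean of the 10 members were Itga8, Map3k7cl, Htr1b, Myocd, Scube3, Nexn, Synpo2 and Rgs4, with r of at least 0.95 in both libraries over 22 inhibitor and 26 DMSO clusters of 50 cells or more. Itga8, Map3k7cl, Myocd, Nexn and Synpo2 were among the markers used to name smooth muscle-like cells and Rgs4 among those of pericytes. The points share the same free RNA within a library. Of the members themselves, Smtn was least like the mean, with r of 0.83 in the inhibitor library, against 0.84 in the DMSO library, and Myl9 most, with 0.99 in both.

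Partner genes of the contractile apparatus were set between the libraries in smooth muscle-like cells by the same rule. Of 47 listed, 42 were measured. In the inhibitor library 2 were called higher, beside 2.84% of all measured genes, and 1 lower, beside 4.67%. The median log2 ratio of the 42 was 0.02, against -0.06 over all genes. Among the thin filament genes, Cnn3, a calponin of non-muscle cells, had 435 CPM in inhibitor and 212 CPM in DMSO cells and was called higher, with a ratio of 2.05 (1.95 to 2.16). Actb and Cald1 had ratios of 0.981 and 1.02. Among the myosins, Myl12a, another regulatory light chain, had 674 CPM in inhibitor and 423 CPM in DMSO cells, a ratio of 1.59 (1.53 to 1.65), and Myl6 had a ratio of 1.10.

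Beside those shares of all genes, none of the 10 genes that set the phosphorylation of the light chain was called, with Rock1 at a ratio of 1.27. None of the 16 genes of dense bodies, intermediate filaments and adhesion was called, with Vim at 0.999 and Flna at 1.09. Of the transcription factors, Klf4, known to repress contractile genes, was the 1 called lower, with 118 CPM in inhibitor and 229 CPM in DMSO cells, a ratio of 0.514 (0.486 to 0.544). Myocd had 210 CPM in inhibitor and 175 CPM in DMSO cells, a ratio of 1.20 (1.14 to 1.28), and Srf and Mrtfa were below the 20 CPM needed to be measured.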

How the data were processed

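The files deposited by the authors hold raw counts, 1 UMI count for each gene in each barcode, for 2 libraries, 1 per group. Cell Ranger 6.1.1 made them, per the file headers. The submitters' processing notes name the build GRCm38, and Seurat without a step; no source used here says how barcodes were selected. The initials in the sample titles were matched to the 2 treatments in the series design. The members, marker lists and partner genes were chosen with earlier results of these data known.

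Cells were kept with 200 genes or more and no more than 20% of UMIs from mitochondrial genes. Scrublet set a threshold of 0.214 in the inhibitor library, against 0.659 in the DMSO library. The first was used for both, and 440 inhibitor and 253 DMSO barcodes were removed as doublets. Clustering ran once over the cells of both libraries, with no batch correction, on 2000 variable genes that excluded members, partner genes and markers (30 components, 15 neighbours, Leiden resolution 1, seed 0). A marker passed if seen in 20% of cells and at log2 1 above percentile 25 of other clusters. A name needed at least 3 passing markers and a mean log2 difference of 1.5 over its list. It also needed 50 cells, a median of 1000 UMIs and a lead of 0.5 over the next name. No other list could hold more of the cluster's 10 leading genes. Of 33 clusters 22 were named, and names carry "-like". Pericyte-like cells came from resolution 2. Within a library, the counts of a class were added up and converted to CPM. A gene was measured with 20 CPM in 1 library and 20 UMIs in all, and log2 ratios used CPM + 5. Ratio and share intervals are exact (Clopper-Pearson). All members are named; of partner genes, those called and the 2 with most CPM per group of genes, except 1 that is not reported here; of other genes, the 8 most like the members' mean profile. Ratios and calls were tested on simulated counts. Python 3.11.15, scanpy 1.11.5, leidenalg 0.10.2 and scipy 1.17.1 were used.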

Additional observations from a re-analysis of the deposited data

How the results depend on the processing

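In smooth muscle-like cells the counts of members called higher and lower stayed at 0 and 0 under every alternative run except these. At a limit lowered to 0.32 on the log2 scale, 2 members were higher and 1 lower. With modulated cells added, 2 were higher, the median log2 ratio was 0.49 and the log2 ratio of the member share was 0.49. The median otherwise ran from 0.06 (largest cluster alone) to 0.19. The log2 ratio of the member share was 0.13 with doublets kept, 0.20 at resolution 0.5, 0.15 with CPM over the other genes, 0.17 without mitochondrial and heat shock genes, 0.12 with cluster makeup standardised, 0.12 in the largest cluster alone, 0.12 with free RNA taken off, 0.16 with heat shock genes left out of the clustering and 0.22 without the largest cluster; the cause of these shifts was not tested. The last 2 and the addition of modulated cells were chosen after seeing the data. The modulated cluster and cluster 9 depended on the clustering. With heat shock genes left out, 526 inhibitor and 360 DMSO cells led by Igfbp2, Hs6st2 and Sorbs2 stayed unnamed, with close smooth muscle and modulated scores. At resolution 0.5 no cluster was named modulated either, and none had Pln among its leading genes. At resolution 2 a modulated cluster and a cluster led by Pln were found again. Members that were not called did change direction: with modulated cells added, the log2 ratio was 0.09 for Smtn and 0.37 for Tpm2, against -0.28 and -0.02 without them, and 0.38 for Lmod1, which was just below 0 without them. No paired analysis was possible because each group holds 1 library. In smooth muscle-like cells the least abundant member, Actg2, had 13912 UMIs in inhibitor and 2264 in DMSO cells. Pericyte-like cells held 21 and 32 UMIs of Smtn.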
